A study of Homo sapiens with 2 samples.

Results

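The long arm of chromosome 5 (5q) was examined for regions precipitated with an antibody against DEK in the renal carcinoma cell line 786-O, which is an established human line. The deposited peaks were taken as lying on 5q where their start was at or beyond 50.5 Mb of chromosome 5 (hg38). This gave 724 of the 19128 peaks of replicate 1 and 937 of the 24580 peaks of replicate 2. Where peaks of both replicates overlapped they were joined into shared regions, of which 483 of 12590 lay on 5q. The short arm (5p), with peaks ending at or before 45.6 Mb, served as the comparison and held 336 and 409 peaks and 226 shared regions. The shared region nearest to the bound on the inside, at chr5:51652992-51653214, had fold enrichments of 4.96 and 3.79 in replicates 1 and 2, and the nearest on the outside, at chr5:49666104-49667357, had 10.5 and 5.87. Fold enrichment is the authors' ratio at the peak summit.

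Both libraries belonged to 1 group, wild-type 786-O cells titled as negative control, with DEK as the antibody and Cas9 in the library descriptions. The labels state neither whether negative control describes the cells or the precipitation nor whether the replicates were separate cultures, so the spread between them may be technical. Input, edited-cell and other-antibody libraries were not analysed here. With 1 group of 2 replicates no test between samples could be made, and all comparisons below are descriptions with intervals that cover counting error only.

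DEK is an abundant nuclear protein that binds DNA and histones, acts on chromatin structure and RNA processing, and is raised in many tumours. Gain of 5q is a recurrent change in clear cell renal carcinoma, usually described together with loss of the short arm of chromosome 3. Genes of the arm that are discussed in that setting include SQSTM1, which encodes a selective autophagy receptor, NSD1, a histone methyltransferase gene, and STC2, a gene for a secreted glycoprotein. Peak lists do not measure copy number, and copy number was not examined here.

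Promoter sequences of 5q are shown first, because the CCAAT box recurred where a shared summit lay in the promoter. Among 903 RefSeq promoter entries of protein-coding genes on 5q, 23 entries of 21 genes held a shared summit in the 250 bases before the start site, against 2.46% of the 22132 entries genome-wide. CCAAT, the sequence recognised by the transcription factor NF-Y, was found on either strand in 17 of these 23 (73.9%, 95% Wilson interval 53.5 to 87.5). It was found in 30.9% of all 5q promoters, in 32.7% of all promoters of the same length and in 71.3% of the 544 promoters genome-wide that held a shared summit. The 250 bases before the start site are printed for 6 genes chosen for holding CCAAT, not for their enrichment, and for HAVCR1 without it. They are read 5′ to 3′ on the gene's strand from RefSeq (GRCh38.p14), and capitals mark CCAAT or its reverse complement ATTGG.
PWWP2A: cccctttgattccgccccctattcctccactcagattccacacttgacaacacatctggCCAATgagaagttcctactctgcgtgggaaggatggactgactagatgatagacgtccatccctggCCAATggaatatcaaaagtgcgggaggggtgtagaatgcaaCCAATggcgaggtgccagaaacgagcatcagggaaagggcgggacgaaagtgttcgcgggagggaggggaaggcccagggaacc
DCP2: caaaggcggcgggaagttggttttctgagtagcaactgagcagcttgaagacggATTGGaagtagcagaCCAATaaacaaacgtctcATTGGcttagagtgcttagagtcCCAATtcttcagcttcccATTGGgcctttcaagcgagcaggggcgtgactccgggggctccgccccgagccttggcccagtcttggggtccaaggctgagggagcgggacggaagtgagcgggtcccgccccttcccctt
G3BP1: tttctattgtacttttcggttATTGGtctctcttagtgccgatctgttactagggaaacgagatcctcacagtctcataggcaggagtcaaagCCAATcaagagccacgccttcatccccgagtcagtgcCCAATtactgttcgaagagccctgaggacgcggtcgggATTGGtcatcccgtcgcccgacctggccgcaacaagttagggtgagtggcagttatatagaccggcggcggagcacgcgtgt
CCNG1: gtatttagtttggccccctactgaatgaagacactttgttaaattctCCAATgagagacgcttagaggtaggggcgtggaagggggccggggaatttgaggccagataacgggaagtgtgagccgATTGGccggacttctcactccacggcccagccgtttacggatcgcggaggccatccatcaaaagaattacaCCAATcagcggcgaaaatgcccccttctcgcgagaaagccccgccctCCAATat
CDC25C: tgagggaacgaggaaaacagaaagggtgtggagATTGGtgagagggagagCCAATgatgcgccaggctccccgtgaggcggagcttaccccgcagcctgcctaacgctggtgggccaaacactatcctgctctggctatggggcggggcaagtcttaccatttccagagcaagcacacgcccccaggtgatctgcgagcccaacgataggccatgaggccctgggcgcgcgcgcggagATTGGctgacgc
KIF20A: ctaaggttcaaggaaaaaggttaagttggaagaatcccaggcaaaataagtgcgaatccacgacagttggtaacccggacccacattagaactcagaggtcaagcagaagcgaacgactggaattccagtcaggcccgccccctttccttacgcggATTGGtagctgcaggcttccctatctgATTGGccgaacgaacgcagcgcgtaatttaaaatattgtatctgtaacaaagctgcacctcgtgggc
HAVCR1: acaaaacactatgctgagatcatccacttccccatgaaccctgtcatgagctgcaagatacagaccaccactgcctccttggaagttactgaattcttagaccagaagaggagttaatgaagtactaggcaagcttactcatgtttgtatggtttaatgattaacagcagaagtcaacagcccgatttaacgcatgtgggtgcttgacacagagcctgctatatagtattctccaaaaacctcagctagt

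These stretches lie at chr5:160119451-160119700 on the minus strand for PWWP2A, a reader of the histone variant H2A.Z, and at chr5:112976548-112976797 on the plus strand for DCP2, the mRNA decapping enzyme. That of G3BP1, a stress granule protein, lies at chr5:151771704-151771953 (plus), and that of CCNG1, cyclin G1, at chr5:163437321-163437570 (plus). CDC25C, the phosphatase that activates mitotic CDK1, has its stretch at chr5:138331878-138332127 (minus), KIF20A, a mitotic kinesin, at chr5:138178862-138179111 (plus), and HAVCR1, the kidney injury marker KIM-1, at chr5:157059117-157059366 (minus). DCP2 held 5 matches, G3BP1 and CCNG1 held 4 each, PWWP2A and CDC25C held 3 each and KIF20A held 2. In the 17 promoters with a match the nearest CCAAT lay a median of 29 bp from the shared summit, and 13 lay within 50 bp. The median over the 388 promoters genome-wide with a summit and a match was 30 bp. In CDC25C and KIF20A it lay farther away, at 65 bp and 113 bp.

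The other motifs searched on both strands stood closer to the share among all promoters. GGGCGG, the GC box, occurred in 13 of the 23 promoters (56.5%) and in 53.7% of all promoters. TATAAA occurred in 0 of 23 and in 8.996% of all, and TGACGTCA in 0 of 23 and in 2.02% of all. CACGTG and TGANTCA occurred in 1 of 23 each (4.35%), against 7.37% and 5.35% of all promoters. The median GC content was 57.6% in the 23 promoters, 60.8% in all 5q promoters and 62.0% genome-wide. CDC25C, CCNG1 and the overlapping entries RBM27 and RBM27-POU4F3 contribute overlapping or identical stretches, so the 23 are not independent. A match describes letters in this window and is not a measured binding site.

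The deposited peaks rested on few fragments throughout. The summit pileup counts overlapping fragments and was recovered from the deposited fold enrichment and p. Its median was 19 in each library, and on 5q it was 19.5 and 19. The sources used here do not give the library depth. The lowest local background, which follows depth, was 108 and 128 reads per 10 kb. Genome-wide, replicate 1 shared 67.8% of its peaks and replicate 2 shared 52.2%. A place without a peak held none that passed the authors' threshold, and its occupancy could have been under the detection limit.

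Shared regions were thinner on 5q than on 5p. The 131 Mb of 5q held 3.69 shared regions per Mb (95% exact Poisson interval 3.37 to 4.03), against 4.96 (4.33 to 5.65) over the 45.6 Mb of 5p and 4.16 over chromosomes 1 to 22 and X. Single libraries gave the same order, with 5.53 peaks per Mb on 5q and 7.37 on 5p in replicate 1, and 7.15 and 8.97 in replicate 2. Gene content ran the other way, since 5q carried 5.62 protein-coding genes per Mb and 5p carried 3.64. Per 100 protein-coding genes, 5q had 65.6 shared regions, 5p had 136 and the genome 63.0. Above a fold enrichment of 5 in both replicates the order between the arms turned, to a density on 5q 1.35 times that on 5p, on 31 and 8 regions. No interval was computed for this ratio, and counts this small do not resolve the order.

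Shared regions of 5q were sparsest in its centromere-proximal part. Local background, the read density that the peak caller set each summit against, fell into 2 unequal parts along the arm, and a boundary at 100 Mb was chosen after this was seen. The boundary lies inside a stretch of 5.93 Mb without shared regions. The proximal 49.5 Mb, with 202 protein-coding genes, held 51 shared regions, or 1.03 per Mb (0.767 to 1.35). The distal 81.5 Mb, with 534 genes, held 432, or 5.30 per Mb (4.81 to 5.83), which was 5.15 times the proximal density and 1.07 times that of 5p. In replicate 1 there were 93 proximal and 631 distal peaks, and in replicate 2 there were 123 and 814. Gene content differed by less, at 4.08 genes per Mb against 6.55, and per 100 genes the proximal part held 25.2 shared regions and the distal part 80.9. The share of the span inside protein-coding genes was 40.1% and 42.0%. The low density did not end at the boundary. In bins of 10 Mb the density was 0.5 to 1.6 shared regions per Mb below 100 Mb. It was 1.7, 2.6 and 2.7 in the bins from 100 to 130 Mb, under that of 5p. From 130 to 140 Mb it was 9.4, and in the bins beyond it ran from 3 to 9.51.

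**Figure D1:**
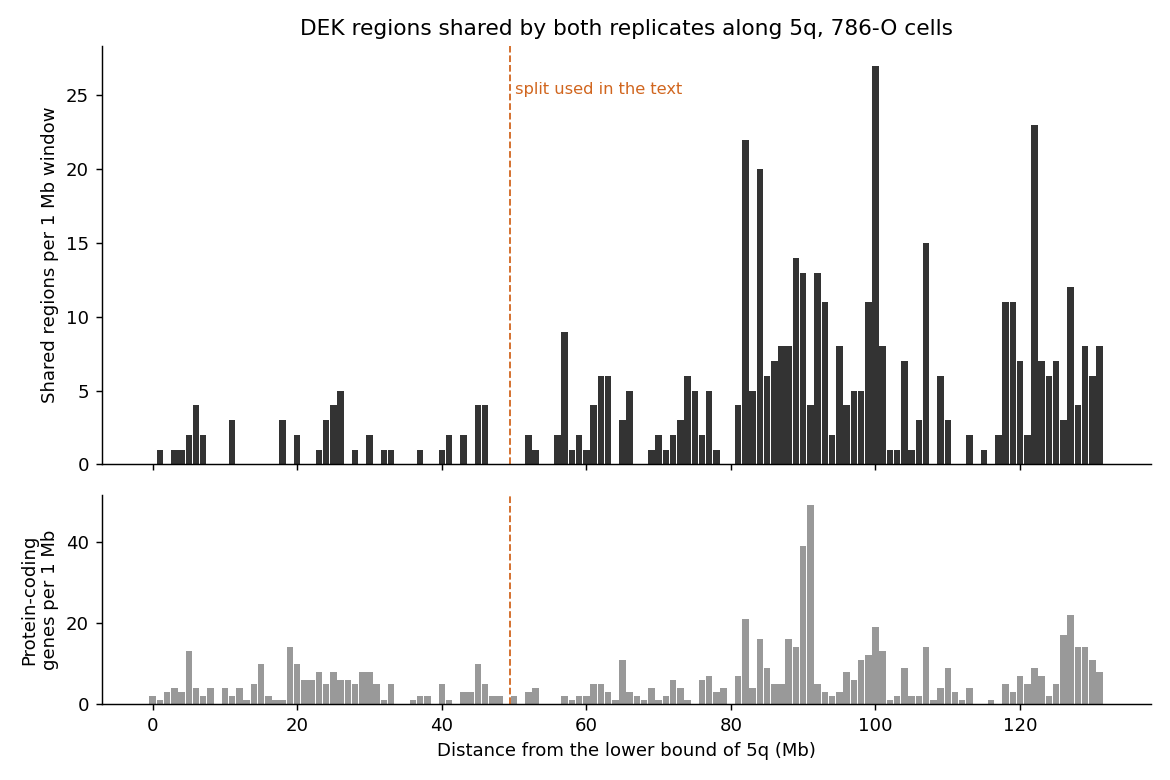
Shared DEK regions (top) and protein-coding genes (bottom) in 1 Mb windows, against the distance in Mb from the lower bound of 5q; the dashed line marks the boundary at 100 Mb of the chromosome. Bars on the proximal side reach at most 5 regions per window, and the tallest bar on the distal side holds 27.

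The background also differed between the parts. The median local background at the peaks was 134 reads per 10 kb in the proximal part and 252 in the distal part in replicate 1, a ratio of 1.88. In replicate 2 it was 156 and 278.5, a ratio of 1.79. On 5p the medians were 299 and 334, which was 1.19 and 1.20 times those of distal 5q. In bins of 10 Mb the median of replicate 1 was between 108 and 144 reads per 10 kb in the 5 bins below 100 Mb. It was between 202 and 280.5 in the 9 bins above it. In replicate 2 the ranges were 148 to 166 and 225 to 331.5. Density did not rise at the same place as this background. The bin from 100 to 110 Mb had medians of 250 and 272 at 1.7 shared regions per Mb. The bin from 130 to 140 Mb had 280.5 and 331.5 at 9.4 per Mb. Because the boundary was placed on this background, the ratios and the separation of the ranges follow in part from that choice. Among the 22 other chromosomes the medians of replicate 1 ran from 139 on X to 272 on chromosome 20. In that library no other chromosome lay below proximal 5q, and 3 lay above distal 5q. In replicate 2, X alone lay below proximal 5q, at 155, and 3 lay above distal 5q. This sets parts chosen by their background beside whole chromosomes, and parts of other chromosomes were not examined. The ranks therefore do not show that either part is unusual. These values are taken at called peaks and do not sample the whole arm.

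**Figure D2:**
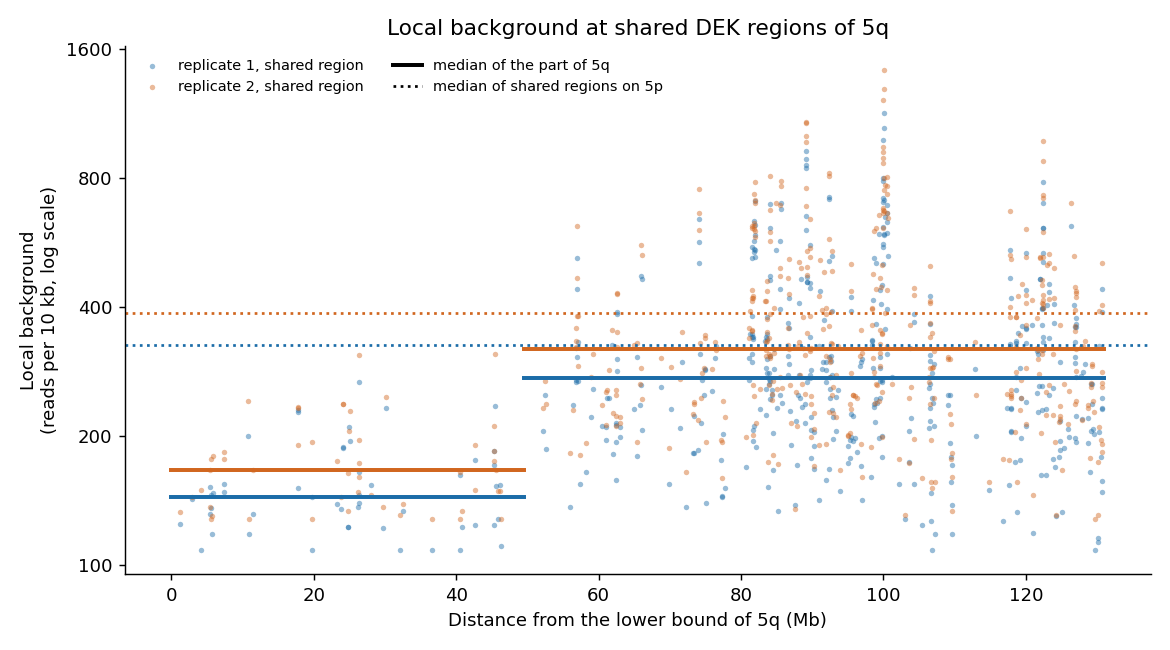
Local background (reads per 10 kb, log scale) at each shared region of 5q against the distance in Mb from the lower bound of the arm, blue for replicate 1 and orange for replicate 2; solid lines are medians over the shared regions of each part, 144 and 167 proximal and 273.5 and 320 distal, and dotted lines the medians on 5p, 326.5 and 387.5. The boundary was placed after this background was seen, and the step lies there in both libraries.

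Peaks of the proximal part were built on fewer fragments and had higher ratios. To pass the same threshold, a peak on a lower background needs fewer fragments and a higher ratio. This pattern therefore follows in part from peak calling. The median summit pileup was 14 in the proximal part in both libraries and 20 in the distal part, while the median fold enrichment was 4.27 and 4.19 in the proximal part and 3.85 and 3.72 in the distal part. The lowest background the library allowed applied to 23 of the 93 proximal peaks of replicate 1 (24.7%) and 22 of the 123 of replicate 2 (17.9%), against 4 (0.634%) and 12 (1.47%) in the distal part. A fold enrichment of at least 5 in both replicates was reached by 6 of the 51 proximal regions (11.8%), 25 of the 432 distal ones (5.79%) and 8 of the 226 on 5p (3.54%). The background share was 10.3% of all shared regions. For 5q as a whole it was 31 of 483 (6.42%). The part of the background in the density difference was not tested.

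Replicates shared peaks on 5q to the same extent as elsewhere. Of the peaks of replicate 1 on 5q, 496 (68.5%, 95% Wilson interval 65.0 to 71.8) overlapped a peak of replicate 2, and of those of replicate 2, 486 (51.9%, 48.7 to 55.1) overlapped a peak of replicate 1. On 5p the shares were 69.9% (64.8 to 74.6) and 55.7% (50.9 to 60.5), and the intervals of the arms overlapped in each library. Within 5q the proximal part shared less, with 54.8% (44.7 to 64.6) and 41.5% (33.1 to 50.3) against 70.5% (66.8 to 73.9) and 53.4% (50.005 to 56.8) in the distal part. The intervals of the parts were apart in replicate 1 and met in replicate 2. Sharing rose with peak strength. In the weakest 25% of each library by −log10 q, replicate 1 shared 45.2% of its 5q peaks and replicate 2 shared 28.4%. In the strongest 25% the shares were 92.8% and 88.2%.

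**Figure D3:**
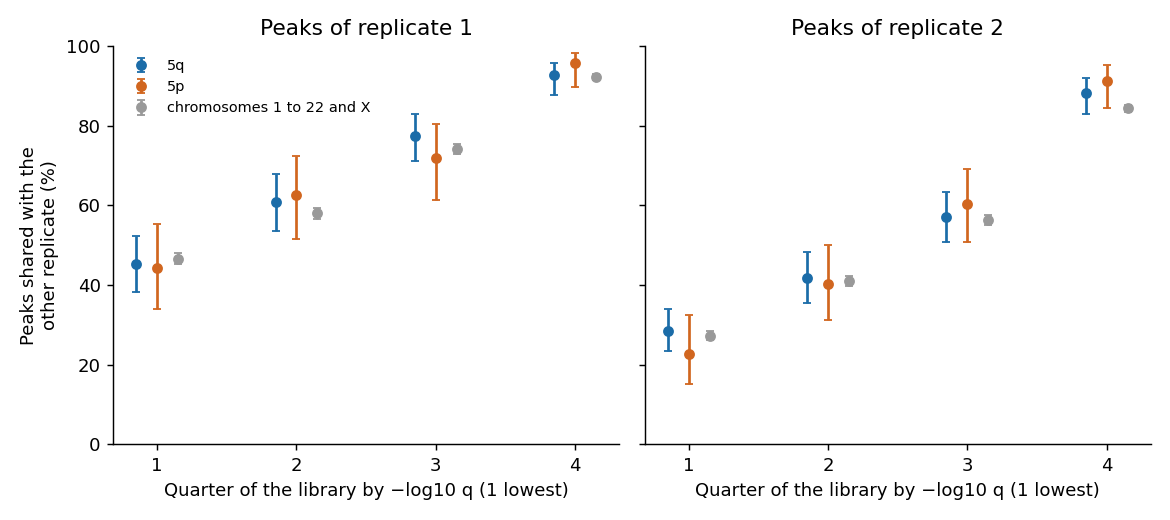
Percentage of peaks overlapping a peak of the other replicate on 5q, on 5p and on chromosomes 1 to 22 and X, by strength class (4 classes of −log10 q within each library); bars are 95% Wilson intervals. The 5q points rise from 45.2% to 92.8% in replicate 1 and from 28.4% to 88.2% in replicate 2, and their intervals overlap those of 5p in every class.

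Unshared peaks of 5q were the weaker ones. The 228 unshared peaks of replicate 1 had a median −log10 q of 3.49 against 5.02 for the shared ones, and the 451 of replicate 2 had 3.501 against 5.31. Their median pileup was 16 and 17, against 22 for shared peaks in both libraries. Across the 483 shared regions the fold enrichments of the replicates had a Spearman correlation of 0.591 and a median absolute log2 ratio of 0.17. All regions come from the same pair of libraries, so this is a description. Just 14 of the 483 regions joined more than 1 peak of a library.

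Regions of high enrichment lay in or near genes of different kinds. In COL23A1, which encodes a transmembrane collagen, the region at chr5:178585401-178585747 had 9.97 and 13.9 (11.9 ± 2.75, SD, n = 2). In CDHR2, a gene for a brush border cadherin, the region at chr5:176591752-176591974 had 8.81 and 9.89 (9.35 ± 0.767). PWWP2A followed at chr5:160119491-160119987 with 7.096 and 7.54 (7.32 ± 0.312), its summit 214 bp before the start site shown above. The PWWP2A pileup was 21 and 23, near the distal 5q median of 20 in each library. Its background was 118 and 134 reads per 10 kb, against distal medians of 252 and 278.5, so the high ratio goes with a low background. A region 8326 bp from FLT4, the gene of the lymphatic VEGF receptor, had 6.31 and 8.08 (7.20 ± 1.25).

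A further 5 of the 10 highest ranked regions were in or near genes of cell structure, guidance and metabolism. SH3PXD2B, a gene for a podosome adaptor, held 6.20 and 7.03, and DOCK2, which encodes a Rac activator of blood cells, held 6.16 and 6.85. A region 1014 bp beyond the start-side end of MCC, a gene named for its mutation in colorectal cancer, had 5.94 and 7.36. PCBD2, whose product is a pterin dehydratase and transcriptional cofactor, had 6.63 and 5.64, and SLIT3, a gene for a secreted guidance ligand, had 5.61 and 6.70. In PCBD2 replicate 1 was the higher, and in the other 8 of the regions named here replicate 2 was.

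**Figure D4:**
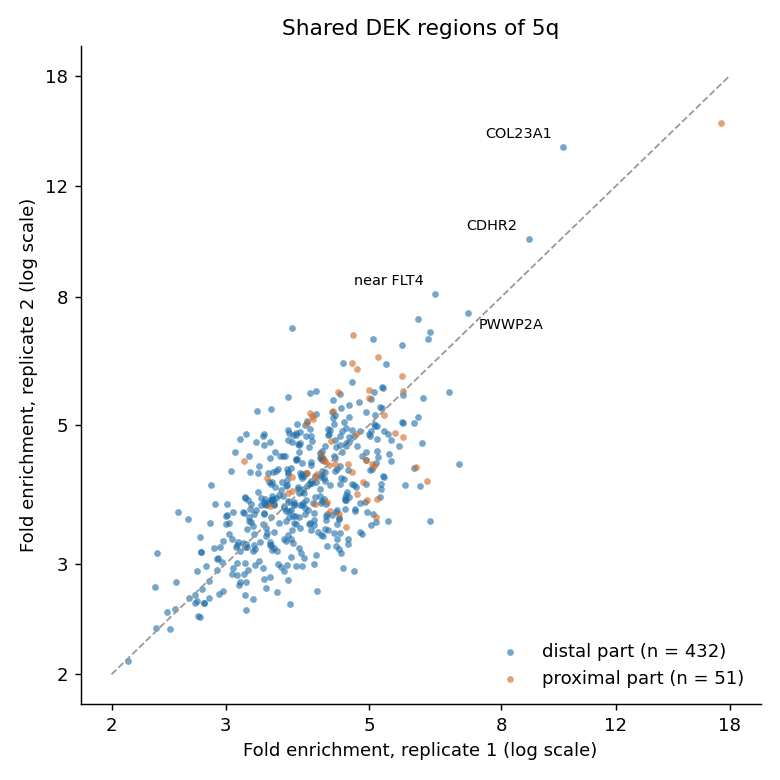
Fold enrichment of the 483 shared regions of 5q in replicate 1 (x axis) and replicate 2 (y axis), both log scales, with 51 proximal regions in orange and 432 distal regions in blue; the dashed line marks equal values. The labelled COL23A1 and CDHR2 regions stand apart from the bulk toward the upper right.

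The strong PCBD2 region lay in mitochondrial-like sequence. RefSeq lists 24 entries derived from mitochondrial sequence on 5q and 6 on 5p, and 4 of those on 5q had a shared region within 1 kb, on 3 regions in all. Of these 4, MTCYBP18, MTND6P4 and MTND5P11 form a cluster inside PCBD2, so they are not separate cases. The share over all such entries of the genome is not given here, so the count has no background. The PCBD2 region overlaps MTND6P4. The strongest unshared peak of replicate 1 on 5q, at chr5:134924075-134924279 with a fold enrichment of 5.69, lay in the same cluster and 157 bp from a peak of replicate 2. Reads from mitochondrial DNA and from its nuclear copies can be near identical, so the values at PCBD2 are uncertain. The part of such reads was not tested.

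Regions were concentrated in few windows. Of the 132 windows of 1 Mb that 5q touches, 41 held no shared region and 43 held 1 to 3. The 13 windows with at least 10 held 203 regions (42.0%), and the 5 densest held 107 (22.2%). Empty windows made up 27 of the 50 below 100 Mb and 14 of the 82 above it. The densest window of 5p held 23. Across windows, counts of shared regions and of protein-coding genes had a Spearman correlation of 0.561 (n = 132; 0.296 below the boundary and 0.690 above it), and the peak counts of the replicates 0.936. Windows share libraries and background, so these are descriptions.

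The densest window, from 150 to 151 Mb, held 27 shared regions on 37 and 38 peaks. Of these, 20 lay in or at HMGXB3 (4), NDST1 (4), which encodes a heparan sulfate enzyme, SYNPO (4), the gene of the podocyte actin protein synaptopodin, CAMK2A (3), SMIM3 (2), and with 1 each CSF1R, PDGFRB and TCOF1, and the other 7 lay outside protein-coding genes. CSF1R and PDGFRB encode receptor tyrosine kinases and TCOF1 a factor of ribosomal RNA transcription. Its regions had low ratios, with median fold enrichments of 3.44 and 3.67. Its median background of 553 and 661 reads per 10 kb was more than that of distal 5q as a whole.

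The window from 172 to 173 Mb held 23 regions on 30 and 45 peaks, of which 9 lay in ERGIC1, a gene for a membrane protein of the secretory pathway, 3 in SH3PXD2B and 3 in STK10, a kinase gene, with 1 each at RPL26L1 and in UBTD2. Its background was 363 and 415. The window from 132 to 133 Mb held 22 regions over the cytokine cluster, with 3 in P4HA2, a collagen prolyl hydroxylase gene, 3 in SLC22A5, which encodes the carnitine transporter, and 1 each in IL4 and PDLIM4 and at CSF2. Of the 22, 9 lay outside protein-coding genes and lncRNA genes, and the median background was 449.5 and 510. The window from 134 to 135 Mb held 20, with 5 in JADE2, 5 in TCF7, 3 in PCBD2, 2 in or at CDKL3, and 1 each at UBE2B and in VDAC1 (background 285 and 336). The window from 157 to 158 Mb held 15, with 5 in HAVCR1, 3 in ADAM19, a metalloprotease gene, 3 in CYFIP2 and 1 at THG1L among them (background 246 and 290).

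Empty stretches took up much of the arm. Neighbouring shared regions were a median of 61.1 kb apart, and 91 neighbours lay within 10 kb of each other. The 32 stretches of at least 1 Mb without a shared region added up to 73.6 Mb (56.2% of the arm), and 16 of them lay in the proximal part. The longest, at chr5:61917540-68319194 (6.402 Mb), held 24 whole protein-coding genes, including PIK3R1, the regulatory subunit gene of PI3-kinase, ERBIN, CENPK and KIF2A, and 3 peaks of each replicate. The stretch at chr5:96824237-102755980 (5.93 Mb) held 11 genes, among them CHD1, a chromatin remodeller gene, and ERAP2, with 3 and 6 peaks. The stretch at chr5:83096227-87151520 (4.06 Mb) held VCAN, HAPLN1, EDIL3 and COX7C, with 0 and 5 peaks. VCAN, EDIL3 and HAPLN1 encode proteins of the extracellular matrix.

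Where regions lay relative to genes was much the same on 5q as genome-wide. On 5q 40 of the 483 summits (8.28%) lay at a gene end, meaning within 1 kb of the start or end coordinate of a protein-coding gene, against 8.66% of all shared regions and 11 of 226 (4.87%, 2.74 to 8.50) on 5p. A further 259 (53.6%) lay inside protein-coding genes, 39 (8.07%) inside lncRNA genes and 145 (30.0%) elsewhere. The genome-wide shares were 52.2%, 8.59% and 30.6%. The gene table carries no exons, so exonic and intronic summits were not separated.

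Of the 736 protein-coding genes of 5q, 46 (6.25%, 95% Wilson interval 4.72 to 8.24) carried a shared region at an end. The background over all 19974 protein-coding genes was 6.34%, so 5q was at the background. The 46 genes rested on 40 regions, since some ends are shared. With regions inside the gene included, 184 genes of 5q (25%) were occupied, against a background of 24.0% and 67 of 166 (40.4%) on 5p. At a start site of the promoter table the count was 35 of 652 genes (5.37%), against a background of 5.77%. The parts of the arm differed, with 2 of 202 proximal genes (0.990%, 0.272 to 3.54) and 44 of 534 distal genes (8.24%, 6.20 to 10.9) occupied at an end. The median length was 34.3 kb for genes occupied at an end, 119 kb for those occupied inside alone and 23.7 kb for those with no shared region.

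The gene ends with the highest enrichment belonged to genes of several functions. After PWWP2A came LARS1, the leucyl-tRNA synthetase gene, with 5.14 and 4.55 (4.85 ± 0.423, SD, n = 2). STING1, which encodes the adaptor of cytosolic DNA sensing, had 4.35 and 4.91 (4.63 ± 0.396). G3BP1 had 5.26 and 4.15 (4.70 ± 0.785). GRK6, a receptor kinase gene, had 4.42 and 4.73 (4.57 ± 0.219). In the proximal part GLRX, the glutaredoxin gene, had 4.20 and 4.48 (4.34 ± 0.197).

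Others of the 15 highest were close in value. ZFP62 had 4.53 and 4.52, RBM27 with its readthrough entry RBM27-POU4F3 had 4.23 and 4.55, and RARS1, the arginyl-tRNA synthetase gene, had 4.07 and 4.79. ZMAT2 had 4.76 and 3.98, WWC1, which encodes the Hippo pathway protein KIBRA, had 3.90 and 4.64, PJA2 had 4.64 and 3.83, and PCDH1 had 4.75 and 3.65. Apart from PWWP2A, all 14 lay between 4.20 and 4.85 on average, and SDs between replicates reached 0.785 (G3BP1), so their order is not resolved. Of the 39 genes at an end that have a promoter entry, 30 were also occupied at a start site. The other 9 were RELL2, PCDH1, PPARGC1B, PDE6A, SYNPO, WWC1, RPL26L1, PHYKPL and ZFP62. Start sites inside the annotated gene added PAM, CDC25C, CXXC5, HAVCR1 and PRR7.

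Some ends stood for neighbouring genes that start close together. The region at KIF20A also lay at BRD8, a gene for a bromodomain protein of the TIP60 complex, and had 4.73 and 2.92. A region with 3.42 and 4.79 served CDKL3 and UBE2B, the gene of a ubiquitin-conjugating enzyme of DNA damage tolerance. GIN1 and PPIP5K2 shared 3.70 and 3.29, ATG12 and AP3S1 shared 3.73 and 4.09, and NOP16 and HIGD2A shared 4.25 and 3.80. With a summit alone the gene of such a pair cannot be told.

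Several long genes held clusters of regions. ARHGAP26, a gene for a GTPase-activating protein of RhoA, held the most, 11 over 459 kb, with fold enrichments from 2.33 to 5.05 in replicate 1 and 2.75 to 4.63 in replicate 2. ERGIC1 held 9 over 118 kb, from 2.35 to 4.28 and 2.36 to 4.62. SPOCK1 (524 kb), which encodes a matrix proteoglycan, and EFNA5 (294 kb), which encodes an ephrin ligand, held 8 each. KCNIP1 held 7, TNIP1, the gene of an inhibitor of NF-kappaB signalling, and WWC1 held 6 each, and SLIT3, HAVCR1, JADE2 and TCF7 held 5 each. Per length the order changed, with 1.25 regions per 10 kb in both HAVCR1 and TCF7 and 1.04 in TNIP1, against 0.760 in ERGIC1, 0.240 in ARHGAP26 and 0.0782 in SLIT3.

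HAVCR1, a gene induced in injured proximal tubule and expressed in renal carcinoma, held its regions close together, as did TCF7, a T cell transcription factor gene. The 5 regions of HAVCR1 spread over a gene of 39.995 kb. The strongest, at chr5:157058806-157059409, had 5.26 and 4.89 (5.08 ± 0.263, SD, n = 2) with its summit 80 bp before a start site inside the annotated gene. The other 4 ran from 2.92 to 3.73 in replicate 1 and from 3.07 to 4.84 in replicate 2. The promoter printed above held 0 matches of CCAAT and had 43.2% GC, the lowest of the 23.

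Among the 10 fixed genes, which are named whether occupied or not, SQSTM1 held 2 shared regions, the stronger with 3.85 and 3.47. NR3C1, the glucocorticoid receptor gene, held 2, the stronger with 3.85 and 2.98. MCC held 3 inside, the strongest with 3.95 and 3.75, besides the region beyond its end. NSD1 and STC2 held no shared region and 0 and 1 peaks each, VCAN 0 and 2, and APC, the WNT pathway suppressor gene, and EGR1, an immediate early gene, 1 and 0 each.

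Among the gene lists, genes for RNA binding and translation were occupied most often at an end. The count was 8 of 31 (25.8%, 95% Wilson interval 13.7 to 43.2), against the background of 6.34% and 6.25% on 5q, and a further 3 were occupied inside. They included LARS1, G3BP1, RBM27, RARS1, NOP16 (4.25 and 3.80), DDX41 (3.82 and 3.74) and RPL26L1 (3.34 and 3.65). DDX41 encodes an RNA helicase, NOP16 a nucleolar factor and RPL26L1 a ribosomal protein. At a start site the count was 5 of 29, against a background of 5.77% over all genes with a promoter entry. The other 20 members, such as RPS14, NPM1 and MATR3, had no shared region, and 12 of these had no peak in either library.

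The shares of the transcription and cell cycle lists at an end had intervals that held the background of 6.34%. Transcription and chromatin genes had 4 of 37 at an end (10.8%, 4.29 to 24.7), PWWP2A, PPARGC1B (4.20 and 3.86), BRD8 and ZNF608 (3.07 and 3.29), and 6 more inside. Those inside included JADE2 (5.99 and 3.997), HMGXB3 (4.24 and 4.42), MACROH2A1 (4.03 and 3.48), which encodes a histone variant, and CXXC5 (3.499 and 3.75). Cell cycle genes had 3 of 19 at an end (15.8%, 5.52 to 37.6), UBE2B, KIF20A and CCNG1 (3.28 and 3.74). CDC25C, with 4.70 and 5.86 (5.28 ± 0.819, SD, n = 2), counted as inside because its annotated end lies 6345 bp from the summit, and it had the highest value of the list. The other 15, among them CCNB1, PTTG1 and CDK7, had no shared region.

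Signalling genes were occupied more often inside than at an end, as were all protein-coding genes (17.6% inside alone and 6.34% at an end). WWC1 alone of 31 was at an end (3.23%, 0.572 to 16.2), an interval that held the background. Another 14 were occupied inside, led by TNFAIP8 (5.86 and 5.04), ARHGAP26 (4.78 and 4.63), F2RL1 (5.08 and 4.29) and TNIP1 (4.60 and 4.62). Together these made 48.4% (32.0 to 65.2), against the background of 24.0%. This share was the highest of the 11 lists, and its interval does not allow for that choice. Genes of 5q occupied inside alone were long (median 119 kb), and the lists were not matched for gene length. In the matrix and adhesion list 0 of 18 were at an end and 6 inside: COL23A1, ADAMTS2 (5.64 and 5.57), FSTL4 (4.50 and 5.59), CTNNA1 (4.65 and 4.70), SGCD and TGFBI. DNA repair genes had 0 of 10 at an end and 3 inside, among them XRCC4 (5.91 and 4.29) and POLK (5.14 and 3.80). The kidney list had 0 of 11 at an end and 3 inside, HAVCR1, MGAT1 (4.27 and 4.20) and SLC22A5 (4.46 and 3.66). SLC34A1, the proximal tubule phosphate transporter gene, had no shared region. At an end or inside, the matrix, repair and kidney shares were 33.3% (16.3 to 56.3), 30% (10.8 to 60.3) and 27.3% (9.75 to 56.6). These intervals held the background of 24.0%. The upper limits for 0 at an end were 17.6%, 27.8% and 25.9%, so these intervals held the background of 6.34%.

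The distal 5q35 list had 0 of 20 at an end and 5 inside (25%, 11.2 to 46.9, against the background of 24.0%). The 5 were MGAT1, CANX (3.66 and 3.94), DBN1 (3.83 and 3.72), RACK1 (3.90 and 3.42) and SQSTM1. Of the clustered protocadherin genes, 1 of 53 was at an end and 21 were inside, but these 22 counts come from 1 region at chr5:141488624-141488925 (3.97 and 3.89), over which the overlapping gamma genes extend. For lists of genes not typical of an epithelial culture the shares occupied at an end or inside, 29.4% (13.3 to 53.1) for immune genes and 27.8% (12.5 to 50.9) for neuron and synapse genes, had intervals that held the background of 24.0%. Immune genes had CSF2 (3.21 and 2.68) at an end and 4 of 17 inside, among them DOCK2, IL4 (4.58 and 3.79) and TIMD4 (4.87 and 3.35). Neuron and synapse genes had 0 of 18 at an end and 5 inside, among them KCNIP1 (5.56 and 4.63), GRIA1 (4.88 and 4.47), CAMK2A (5.02 and 4.24) and ADGRV1 (4.63 and 4.34). These data hold no expression values.

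**Figure D5:**
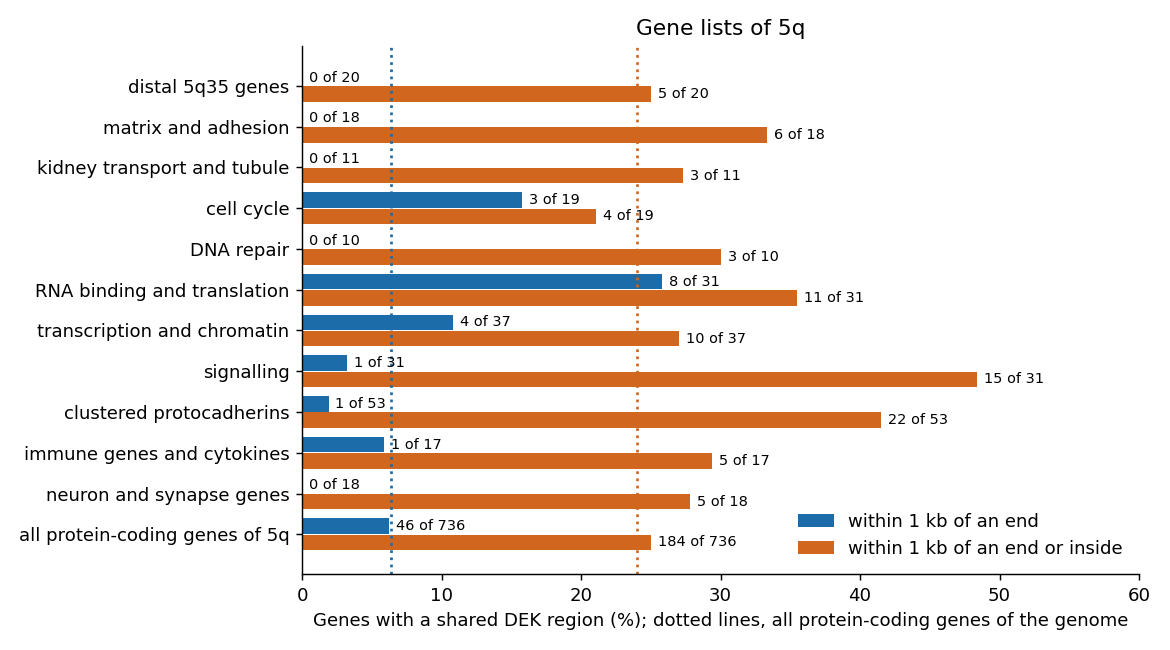
Percentage of protein-coding genes of each list on 5q with a shared DEK region at an end (blue, 1 kb allowed) and at an end or inside (orange), with counts beside the bars; dotted lines are the shares of all protein-coding genes, 6.34% and 24.0%. RNA binding and translation has the longest blue bar (8 of 31) and signalling the longest orange bar (15 of 31).

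The fold enrichment of the occupied members also varied by list. For each gene the mean percentile of its fold enrichment among all shared regions of the genome was taken, and the median over the occupied genes of 5q was 52.2. It was 75.9 for DNA repair, 75.5 for matrix and adhesion and 69.3 for neuron and synapse genes. For kidney genes it was 56.1, for signalling 55.6 and for immune genes 52.4. It was 43.2 for the cell cycle, 41.9 for protocadherins, 39.98 for RNA binding and translation, 36.8 for transcription and chromatin and 34.2 for 5q35. These medians rest on 3 to 22 genes per list, the 22 protocadherins on the 1 region above. The percentile ranks a ratio and not a number of fragments. XRCC4 stood at 75.9 with pileups of 19 and 13 on a background of 134 and 139 reads per 10 kb. CXXC5 stood at 27.4 with pileups of 56 and 62 on a background of 859 and 968. Pileup was not compared between the lists.

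Small RNA genes of 5q were counted by class, with the background over all genes of the class. Of the 4 vault RNA genes, short transcripts of RNA polymerase III that all lie on 5q, so that they have no background elsewhere, VTRNA1-1 had 4.10 and 3.62 and VTRNA1-2 had 4.56 and 4.10, while VTRNA1-3 had no peak and VTRNA2-1 a peak in replicate 2 alone. Of 17 tRNA genes (background 6.32%), TRK-CTT2-2 had 3.85 and 4.84 and TRV-AAC1-4 had 5.26 and 4.12. A shared region lay at 1 of 5 snRNA genes (background 21.4%), 1 of 42 snoRNA genes (1.59%), SNORD96A inside RACK1, and 0 of 60 miRNA genes (1.52%).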

How the data were processed

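DEK ChIP-seq was measured in 2 libraries of 786-O cells, each deposited as its own peak list. Per the submitters' processing notes the build was GRCh38 (hg38), and the tools, listed without roles, included MACS2 2.2.7.1, Bowtie2 2.2.5, deepTools 3.5.1 and cutadapt 1.18, besides ChIPseeker 1.32.1 and DiffBind 3.6.5. The sources used here do not say if a control library entered peak calling. The local background may therefore include DEK reads of the peaks and their neighbours. The authors deposited for each peak a fold enrichment, which is a linear ratio at the summit, a −log10 p, a −log10 q, a score and a summit offset in bp. The deposited score was not used beyond a check against 10 times the −log10 q, which it matched, cut to a whole number, in 100% and 99.95% of the peaks.

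The summit pileup and local background were solved from the Poisson p and the fold enrichment, which was read as pileup plus 1 divided by background plus 1. In 100% of the peaks a whole-number pileup gave the deposited p, with a relative error under 5e-05, and backgrounds came out as whole reads per 10 kb. The fragment lengths that gave whole reads were 178 bp and 163 bp. Peaks on chromosomes 1 to 22 and X were used, and 0.591% and 0.500% were left out. Peaks overlapping by at least 1 bp were joined, and the summit was the midpoint of the strongest peaks' summits. A gene end was occupied where a summit lay within 1 kb of either annotated end. A gene with several regions was given its highest ranked one.

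Gene positions, promoters and their sequences came from RefSeq tables of GRCh38.p14, and a genome sequence was not used. The named genes were the 15 highest at an end, the 10 with most regions inside, the 10 highest regions, the 5 densest windows, the 3 longest empty stretches, up to 4 members per list and status, and 10 fixed genes. Genes that were named as members without a region, as sharing an end or as lacking a start-site match, and TCF7 in the count of regions inside, were chosen after their values were seen. The arm, the 11 gene lists and the fixed genes were chosen with earlier results of these data known. Python 3.11.15 with numpy 2.4.6, pandas 2.3.3, scipy 1.17.1 and matplotlib 3.10.9 was used, and the recovery and overlap steps were tested on simulated data. Alternatives were stricter q and fold limits, reciprocal overlap of 50%, summits within 100 bp, other windows and gene rules, and each library alone. Some named members and the results that need them are not reported here.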

Additional observations from a re-analysis of the deposited data

Results flagged for a closer look

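Chromosome 5 also carried 135 peaks of replicate 1 and 189 of replicate 2 between 45.6 Mb and 50.5 Mb, outside both arms as defined here. They formed 113 shared regions with median fold enrichments of 6.07 and 5.82 at the peaks, on a local background of 123 and 136 reads per 10 kb. Peaks outside chromosomes 1 to 22 and X numbered 113 in replicate 1 and 123 in replicate 2. Both sets lie outside the comparisons above.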

How the results depend on the processing

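No paired analysis was possible because there was only 1 group. Of 82 recomputed values, 40 stayed within their counting interval, replicate spread or 1.5 times the count reported. With a −log10 q of at least 5, a fold enrichment of at least 5, and summits within 100 bp, 5q held 1.298, 0.237 and 2.33 shared regions per Mb. Relative to 5p this was 0.580, 1.35 (the order turned, on too few regions to resolve it) and 0.703. Under the same settings 11, 1 and 24 genes were occupied at an end. The densest window held 17 regions and 2 regions at the q and fold limits, and the longest empty stretch was 18.1 Mb and 19.1 Mb. Per 100 genes the ratio of 5q to 5p was 0.482 and per Mb of coding genes 0.622. With the boundary chosen after seeing the data, proximal 5q had 1.03 regions per Mb, 0.208 times 5p, and distal 5q 1.07 times 5p (the order turned). Within 3 kb of an end 96 genes were occupied, and 184 with whole genes. Sharing in replicate 1 was 59.9% at the q limit, 37.8% at the fold limit, 52.2% where peaks had to overlap reciprocally by 50% and 42.1% where summits had to lie within 100 bp, and in replicate 2 38.3%, 40.3% and 32.6% under the last 3. At the q and fold limits the median fold was 4.50 and 5.37, width 366 and 346.5 bp, pileup 25.5 and 23.5, and background 287.25 and 197.5 reads per 10 kb. With the peaks of either library alone the density was 5.53 to 7.15 per Mb, the ratio to 5p 0.750 to 0.797, the densest window 37 to 45, the longest stretch 3.83 to 4.06 Mb and the occupied genes 75 to 89. The densest window began at 172 Mb without replicate 1, at 131.5 Mb with shifted windows, at 132 Mb with 0.5 Mb windows and at 56 Mb at the fold limit. With any base of a region within 1 kb of an end, also chosen after seeing the data, 55 genes were occupied. Stricter limits and joint calls leave fewer peaks by construction, and the cause of the turned orders was not tested. With median pileups near 19 fragments, weaker occupancy could not be detected.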
